A study of Mus musculus with 12 samples.

Results

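The 37 genes described here act in mitosis and cytokinesis, the steps by which a cell separates its copied chromosomes and then divides. They were chosen by name, with earlier results of these data known but by no threshold on a measured value, from 21887 protein-coding genes on chromosomes 1 to 19, X and Y. R-loops, in which RNA pairs with one DNA strand and displaces the other, had been captured with S9.6, an antibody against RNA-DNA hybrids. The 12 libraries formed 6 groups of 2. HEPA1-6 cells and liver each gave an input, an S9.6 precipitate and an S9.6 precipitate with RNase H1. HEPA1-6 is a mouse hepatoma line grown in culture, and the liver came from C57/Bl6 mice whose age and number are not given in the sources used here. All groups were labelled wild type with treatment "none" and cell type hepatocyte, including those whose titles name RNase H1, the enzyme that removes the RNA of a hybrid. The values are intervals called as enriched in a merged immunoprecipitate over input, in 1 list per source. Single libraries and the RNase H1 treated groups were not analysed here, so no difference below has a replicate check and no test was possible. Depth behind the lists is unknown, and a gene without an interval may carry signal below the level at which the authors called one.

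Entry into mitosis is driven by Cdk1 bound to B-type cyclins, and exit by the anaphase-promoting complex (APC/C), a ubiquitin ligase that marks cyclin B and securin for destruction. The spindle assembly checkpoint holds back the APC/C until every kinetochore is attached to the spindle. Many genes of this programme are little transcribed in resting cells and most transcribed in G2 and mitosis. Many of their promoters hold a cell cycle homology region (CHR), read by the DREAM and MuvB complexes, and CCAAT boxes, bound by NF-Y. Hepatocytes of the adult liver rarely divide, whereas a hepatoma line in culture divides continually.

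Promoter sequences are shown first because the control elements of these genes lie there and because intervals of both lists met at many of their starts. RefSeq windows of assembly GRCm38.p6, from 250 bases before to 50 bases after a gene's start, matched 30 of the 37 genes. Aurkb, Ccna2, Foxm1, Incenp, Kif20a, Smc4 and Tpx2 had no entry. The letters TTTGAA or TTCGAA, searched on both strands as the CHR, were found in 25 of 30 windows (83.3%), against 18.2% of 17492 protein-coding genes. CCAAT, searched on both strands, was found in 24 of 30 (80.0%), against 39.2%. A window with CHR and CCAAT matches together was found for 22 of 30 genes (73.3%), against 7.47%. In the 250 bases before the start alone, CHR letters were found in 14 of 30 windows, against 16.5% of all, so that the other 11 members matched only in, or reaching into, the 50 bases after it. Of these letters TTCGAA reads the same on both strands, and CCAAT is contained in neither CHR form. Below are the 250 bases upstream of the start, 5′ to 3′ on the gene's strand, for 6 genes, those with the lowest sum of start interval ranks over both lists among genes with a window. Ect2 and Bub1b follow as the 2 longest genes with no interval in either list and with a window. The start in the Ect2 window lies 375 bp inside the gene's outer boundary, so the bases printed for Ect2 lie within the gene. Capitals mark the CHR and CCAAT letters on either strand.
Ccnb1, chr13:100786487-100786736, minus strand: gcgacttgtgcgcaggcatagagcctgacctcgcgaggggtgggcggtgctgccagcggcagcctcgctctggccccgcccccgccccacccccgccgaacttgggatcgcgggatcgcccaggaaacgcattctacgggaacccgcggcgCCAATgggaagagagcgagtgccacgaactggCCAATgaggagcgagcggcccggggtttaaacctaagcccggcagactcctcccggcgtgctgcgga
Cdk1, chr10:69352913-69353162, minus strand: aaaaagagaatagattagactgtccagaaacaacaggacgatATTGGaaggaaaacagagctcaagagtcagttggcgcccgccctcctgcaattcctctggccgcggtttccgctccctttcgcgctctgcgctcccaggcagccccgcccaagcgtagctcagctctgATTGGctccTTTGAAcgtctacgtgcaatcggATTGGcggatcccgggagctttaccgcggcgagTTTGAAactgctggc
Bub3, chr7:131560120-131560369, plus strand: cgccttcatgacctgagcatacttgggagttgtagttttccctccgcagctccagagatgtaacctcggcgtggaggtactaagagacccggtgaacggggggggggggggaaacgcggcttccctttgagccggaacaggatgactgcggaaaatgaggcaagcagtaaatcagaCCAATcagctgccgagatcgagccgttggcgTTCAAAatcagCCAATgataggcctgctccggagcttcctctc
Ube2c, chr2:164769679-164769928, plus strand: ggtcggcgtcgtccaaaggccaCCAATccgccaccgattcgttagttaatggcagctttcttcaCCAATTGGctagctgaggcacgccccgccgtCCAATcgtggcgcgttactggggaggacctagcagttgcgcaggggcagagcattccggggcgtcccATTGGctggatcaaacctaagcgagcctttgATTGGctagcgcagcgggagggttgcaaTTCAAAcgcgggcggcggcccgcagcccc
Racgap1, chr15:99651657-99651906, minus strand: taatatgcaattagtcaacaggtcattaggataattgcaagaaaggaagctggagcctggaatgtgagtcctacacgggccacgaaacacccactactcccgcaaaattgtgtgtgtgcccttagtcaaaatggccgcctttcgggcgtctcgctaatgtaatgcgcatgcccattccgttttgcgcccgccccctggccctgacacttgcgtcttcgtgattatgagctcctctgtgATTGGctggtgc
Cenpa, chr5:30666636-30666885, plus strand: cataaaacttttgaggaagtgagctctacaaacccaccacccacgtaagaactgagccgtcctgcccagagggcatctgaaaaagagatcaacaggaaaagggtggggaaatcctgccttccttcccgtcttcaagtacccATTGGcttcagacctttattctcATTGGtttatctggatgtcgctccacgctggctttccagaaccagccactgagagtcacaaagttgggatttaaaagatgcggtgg
Ect2, chr3:27153879-27154128, minus strand: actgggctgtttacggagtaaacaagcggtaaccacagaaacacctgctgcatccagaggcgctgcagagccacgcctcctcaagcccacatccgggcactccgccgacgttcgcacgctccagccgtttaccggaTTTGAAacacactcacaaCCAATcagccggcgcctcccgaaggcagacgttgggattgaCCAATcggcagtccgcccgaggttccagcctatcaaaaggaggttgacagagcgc
Bub1b, chr2:118597961-118598210, plus strand: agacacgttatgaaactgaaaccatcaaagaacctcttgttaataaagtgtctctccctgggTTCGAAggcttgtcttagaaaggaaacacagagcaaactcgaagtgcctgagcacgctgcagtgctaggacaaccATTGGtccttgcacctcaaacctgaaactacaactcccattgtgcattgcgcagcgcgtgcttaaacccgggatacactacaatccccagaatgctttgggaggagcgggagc
CCAAT letters stood upstream of all 8 starts, from 1 match at Racgap1 and Bub1b to 6 at Ube2c, of which a pair overlaps. CHR letters stood upstream of Cdk1 with 2 matches and of Bub3, Ube2c, Ect2 and Bub1b with 1 each, and upstream of Ccnb1, Racgap1 and Cenpa with 0. A match is a string of letters, and binding was not measured.

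The HEPA1-6 list held 28717 intervals and the liver list 14908. The score of an interval is the authors' own whole number without a stated scale, at least 10 in both lists, with medians of 21 and 22. It serves here to rank intervals within a list, and a percentile of 90.5, for example, means that this share of the list scored lower, ties counted at their middle. The liver label was set against markers of liver cells. Of 30 hepatocyte markers, 7 held an interval in each list: Alb, Apoa2, Apoe, Hnf4a, Hpx and Trf in both, Apob in HEPA1-6 and Fah in liver. The other 22 markers, Apoa1 and Ttr among them, held none. Of 48 markers of endothelial cells, macrophages, stellate cells, cholangiocytes and lymphocytes, 10 held a HEPA1-6 interval and 6 a liver interval. Endothelial markers held 2 and 0 of 10, macrophage markers 2 and 2 of 10, stellate markers 3 and 2 of 10, cholangiocyte markers 2 and 2 of 8, and lymphocyte markers 1 and 0 of 10. Over all protein-coding genes 42.0% held a HEPA1-6 interval and 29.7% a liver interval, so the hepatocyte share of 23.3% lay below the general share in HEPA1-6 and near it in liver. The bearing of these marker values on the results below was not tested. An interval does not tell hybrids in a few cells from hybrids in many.

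Mitosis genes held intervals in both sources. A gene was counted where an interval reached the gene itself or the 1 kb before or after it by at least 1 bp. In the HEPA1-6 list 31 of 37 genes (83.8%) held one, against 42.0% of all protein-coding genes. In the liver list 23 of 37 (62.2%) did, against 29.7%. Genes within the length range of the members, from 2974 to 60978 bp, held an interval in 46.9% of cases in HEPA1-6 and 32.2% in liver. This range does not match the genes by length. Their median length was 16.2 kb, against 26.7 kb in the members. Both lists had an interval at 22 members (27.8% of all protein-coding genes), HEPA1-6 alone at 9 (14.2% of all), liver alone at 1, Ttk (1.89% of all), and neither at 5 (56.1% of all). The 2 lists called overlapping intervals at 21 members, against 26.7% of all genes. The exception was Cenpf, whose intervals lay apart. With intervals that touch any other gene left out, 29 and 22 members still held one, against 31.8% and 21.9% of all genes.

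**Figure D1:**
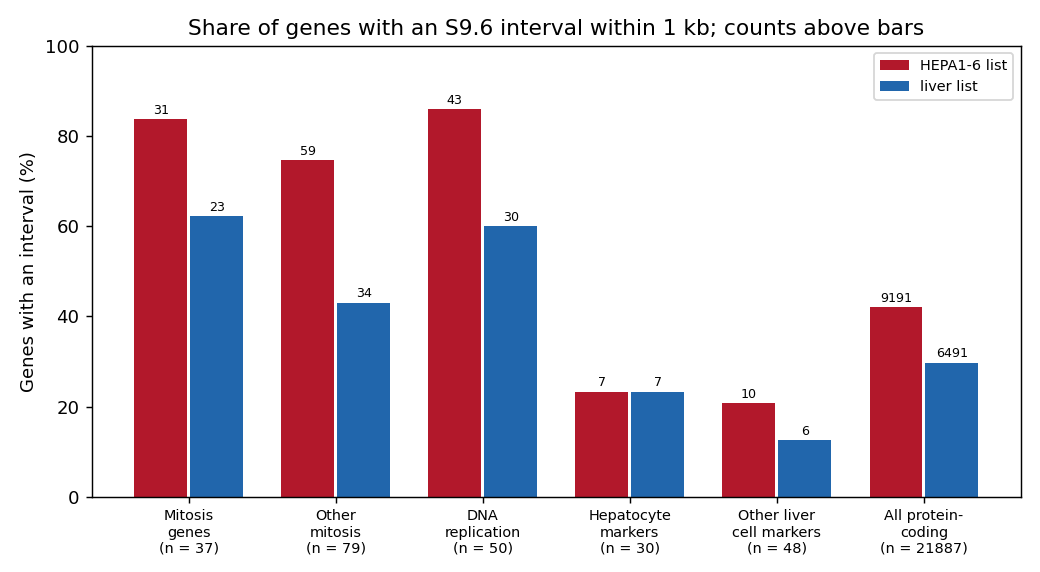
Share of genes with an interval (vertical axis, percent) for each gene list and for all protein-coding genes, in the HEPA1-6 list (red) and the liver list (blue); the count stands above each bar. The 37 mitosis genes stand at 83.8% and 62.2%, the 79 other mitosis genes at 74.7% and 43.0%, DNA replication genes at 86.0% and 60.0%, and all protein-coding genes at 42.0% and 29.7%. There is 1 list per source and no error bar.

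Other genes of the same processes were counted beside the members. Of 79 further mitosis genes, 59 (74.7%) held a HEPA1-6 interval and 34 (43.0%) a liver interval. Every one of the 34 also held a HEPA1-6 interval. Over all protein-coding genes, 6077 of the 6491 with a liver interval did so. Of 50 DNA replication genes, which act in S phase, 43 (86.0%) and 30 (60.0%) held one. None of them held one in liver alone, against 1.89% of all protein-coding genes. The members held 9.62 intervals per 100 kb in HEPA1-6 and 5.73 in liver. The further mitosis genes held 6.13 and 2.27, the replication genes 7.60 and 3.53, and all protein-coding genes 2.64 and 1.21. Protein-coding genes of the members' length range held 5.41 and 2.75. The members thus stood above all these sets in both lists in this density, a difference that could not be tested.

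The members together held 99 HEPA1-6 and 59 liver intervals. Their scores ran from 12 to 191 (median 28) in HEPA1-6 and from 13 to 150 (median 22) in liver. Each member's highest-scoring interval had a median percentile of 85.8 in HEPA1-6 and 70.8 in liver. The same medians over all protein-coding genes with an interval were 79.5 and 68.7. For those in the members' length range they were 80.6 and 70.8. The further mitosis genes had 75.4 and 76.2, and the replication genes 84.4 and 73.5. In liver the members thus did not stand above these 3 sets. With the widest interval of each gene in place of the highest-scoring, the HEPA1-6 median was 76.9. Intervals spread over 28.7% of the length of the median member in HEPA1-6 and 2.78% in liver. All protein-coding genes had medians of 0, because most of them held no interval. Of the members' summed length 19.1% was covered in HEPA1-6 and 7.91% in liver. For protein-coding genes of the members' length range it was 11.1% and 3.92%.

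**Figure D2:**
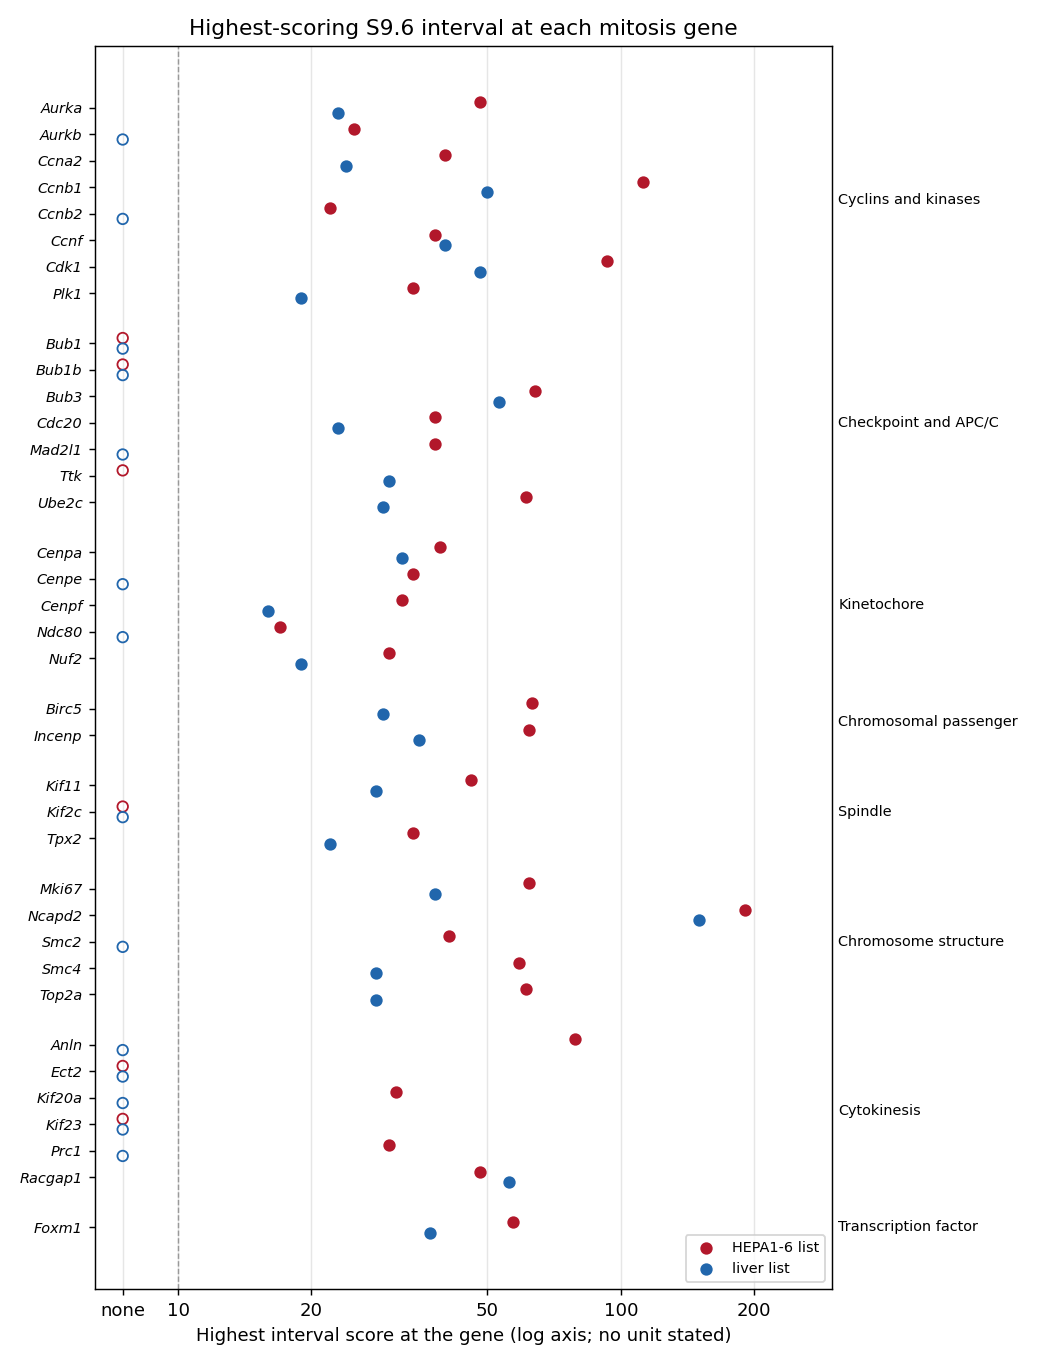
Highest interval score at each of the 37 genes (horizontal log axis), grouped by role, in the HEPA1-6 list (red) and the liver list (blue). Open circles at "none" mark genes without an interval, and the dashed line the lowest score in the lists, 10. Ncapd2 stands highest in both lists, at 191 and 150; scores of different lists share no scale.

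Checkpoint kinases apart, 8 members were grouped as cyclins and mitotic kinases. All 8 held a HEPA1-6 interval (42.0% of all genes), and 6 a liver interval (29.7% of all genes). The checkpoint kinases Bub1 and Ttk, described with the checkpoint genes, held no HEPA1-6 interval. Ccnb1, which encodes cyclin B1, the activating partner of Cdk1, had an interval over its start in both lists. It scored 112 in HEPA1-6 (chr13:100785588-100786933, rank 574) and 50 in liver (chr13:100785476-100786933, rank 1247), with the same upper edge. In HEPA1-6 only Ncapd2 among the members scored higher. Cdk1, the kinase that drives entry into mitosis, was covered over 82.7% of its 17.8 kb by 3 HEPA1-6 intervals and over 53.3% by 4 liver intervals. The interval over its start was identical in both lists, chr10:69348391-69353702, with scores of 93 and 48. A further pair reached past its end, with scores of 68 and 29. Both lists therefore marked the start and the end of Cdk1. Ccna2, the cyclin A2 gene, held 3 HEPA1-6 intervals (scores 19, 36 and 40) and 1 liver interval of score 24, identical in position to the HEPA1-6 interval of score 40. Ccnb2, for cyclin B2, held 1 HEPA1-6 interval of 224 bp and score 22, and no liver interval within 81.2 kb.

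Ccnf encodes the F-box protein cyclin F, which selects substrates for ubiquitin ligation. It held 7 HEPA1-6 intervals with scores of 12 to 38 and 1 liver interval, of 769 bp near its end, with a score of 40. The liver interval stood at percentile 85.6, above the 73.7 of the HEPA1-6 interval it overlapped, and on the opposite strand. Aurka, the centrosome and spindle kinase Aurora A, held 5 HEPA1-6 intervals (scores 15 to 48) and 3 liver intervals (scores 16 to 23). The highest in each list lay at its start and also touched the neighbouring gene Cstf1. Plk1, the polo-like kinase, had start intervals of 3082 bp in HEPA1-6 (score 34) and 291 bp in liver (score 19). Aurkb, the kinase of the chromosomal passenger complex, held 2 HEPA1-6 intervals (scores 18 and 25), and the nearest liver interval lay 36.5 kb away. Aurkb and Ccnb2 were the members of this group marked in HEPA1-6 alone.

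Checkpoint and APC/C genes were divided. Bub1 and Bub1b, which encode checkpoint kinases or kinase-like proteins of the kinetochore, held no interval in either list. The nearest intervals to Bub1 lay 192 kb (HEPA1-6) and 295 kb (liver) away, and to Bub1b 20.6 kb and 48.4 kb. Bub3, their binding partner at the kinetochore, was covered over 78.0% of its 11.5 kb in HEPA1-6 and 56.4% in liver. Its start interval scored 64 in HEPA1-6 (chr7:131559934-131568527) and 53 in liver (chr7:131559934-131563851, percentile 92.5), and both began at the same base. Bub3 thus ranked among the 6 highest members in both lists, while both of its kinase partners were without an interval. Mad2l1, which encodes the inhibitor MAD2 that binds Cdc20, held 2 HEPA1-6 intervals (scores 19 and 38) and no liver interval. Ttk, for the checkpoint kinase MPS1, held only a 900 bp liver interval over its start (chr9:83834397-83835296, score 30, percentile 72.8). The nearest HEPA1-6 interval to Ttk lay 858 kb away. Cdc20, the activator of the APC/C, held HEPA1-6 intervals of 20 and 38 and a liver interval of 23. The pair at its end also touched Elovl1 and had opposite strands. Ube2c, the ubiquitin-conjugating enzyme of the APC/C and the shortest member at 2974 bp, held 1 interval in each list, with scores of 61 and 29, that covered 82.8% and 100% of the gene and ran past its end. Both were placed on the strand opposite to the gene.

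All 5 kinetochore and centromere genes held a HEPA1-6 interval (42.0% of all genes), and 3 a liver interval (29.7% of all genes). Cenpa, for the centromeric histone H3 variant, had start intervals in both lists that began at the same base, with scores of 39 and 32. Cenpe, a kinesin of the kinetochore and the longest member at 61.0 kb, held 1 HEPA1-6 interval of 527 bp (score 34) and none in liver. Cenpf, a large kinetochore protein, held a HEPA1-6 interval in its body (score 32) and a 248 bp liver interval at its start (score 16). Ndc80 and Nuf2 encode the microtubule-binding arm of the kinetochore. Ndc80 held 1 HEPA1-6 interval, of score 17 and percentile 33.3, which was the lowest top score of any member in that list. Nuf2 held 6 HEPA1-6 intervals (scores 13 to 30) and 3 liver intervals (scores 14 to 19). As a group these genes had the lowest median top percentile by role, 76.9 in HEPA1-6 and 39.3 in liver.

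Of the chromosomal passenger complex, which corrects faulty attachments, Birc5 (survivin) held HEPA1-6 intervals of 59 and 63 and a liver interval of 29. Neither list had an interval at the start of Birc5. Incenp, the scaffold of the complex, held 3 HEPA1-6 intervals (scores 23, 52 and 62) and 4 liver intervals (scores 15 to 35). An interval in its body was identical in both lists, chr19:9893433-9896226, with scores of 62 and 35. Among spindle genes, Kif11, the kinesin that pushes spindle poles apart, held 4 HEPA1-6 intervals (scores 33 to 46) and 3 liver intervals (scores 15 to 28). Its start interval was identical in both lists. Tpx2, the spindle assembly factor that activates Aurora A, held 9 HEPA1-6 intervals, the most of any member, with scores of 12 to 34. Its 5 liver intervals scored 14 to 22, and the start interval was again identical in both lists (scores 34 and 18). Kif2c, a kinesin that takes microtubules apart, held none in either list.

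Chromosome structure genes held the highest score among the members. Ncapd2, a condensin subunit, met a HEPA1-6 interval of 22138 bp and score 191 (chr6:125157662-125179799, rank 211) and a liver interval of 10900 bp and score 150 (chr6:125158309-125169208, rank 164). These were the widest intervals at any member in either list. Both also spanned Gapdh, a highly transcribed gene of glycolysis, and touched Iffo1. Apart from them, the intervals at Ncapd2 scored 19 and 22 in HEPA1-6 and 21 and 22 in liver. The high score at Ncapd2 therefore belonged to an interval that Ncapd2 shares with its neighbours. Top2a, for topoisomerase II alpha, held 4 HEPA1-6 intervals (scores 15 to 61) and 3 liver intervals (scores 14 to 28), the highest towards its end. Mki67, which encodes the proliferation marker Ki-67, held 5 HEPA1-6 intervals (scores 14 to 62) and 6 liver intervals (scores 22 to 38) and was covered over 77.4% and 47.7% of its length. Smc4, a condensin core subunit, held 5 intervals (scores 13 to 59) and 2 (scores 17 and 28). Its partner Smc2 held 2 HEPA1-6 intervals (scores 18 and 41) and none in liver.

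Of the 6 cytokinesis genes 4 (66.7%) held a HEPA1-6 interval, against 42.0% of all genes. A liver interval was held by 1 (16.7%), against 29.7% of all genes. Anln, for the contractile ring protein anillin, held 3 HEPA1-6 intervals, the highest a 300 bp interval in its body (chr9:22369946-22370245, score 79, percentile 96.1), and none in liver. Prc1, a microtubule bundler of the spindle midzone, held 4 HEPA1-6 intervals (scores 13 to 30), all of which touched Rccd1, and none in liver. Kif20a, a kinesin of the midzone, held 2 HEPA1-6 intervals (scores 28 and 31), which touched Cdc23 and Brd8. Ect2, the exchange factor that activates RhoA, and Kif23, a kinesin of the centralspindlin complex, held none. At Kif23 the nearest interval in both lists ended 2.57 kb away over the ribosomal protein gene Rplp1, with scores of 58 and 32. Racgap1, the partner of Kif23 in centralspindlin, held 6 HEPA1-6 intervals (scores 14 to 48) and 7 liver intervals (scores 13 to 56), the most of any member in liver. It is the only member on chromosome 15, where 56.3% of protein-coding genes held a HEPA1-6 interval and 54.4% a liver interval. Whether the number of liver intervals at Racgap1 goes with this chromosome was not tested. Foxm1, the transcription factor that activates G2 and mitosis genes, held 3 intervals in each list, with scores of 27 to 57 in HEPA1-6 and 19 to 37 in liver.

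**Figure D3:**
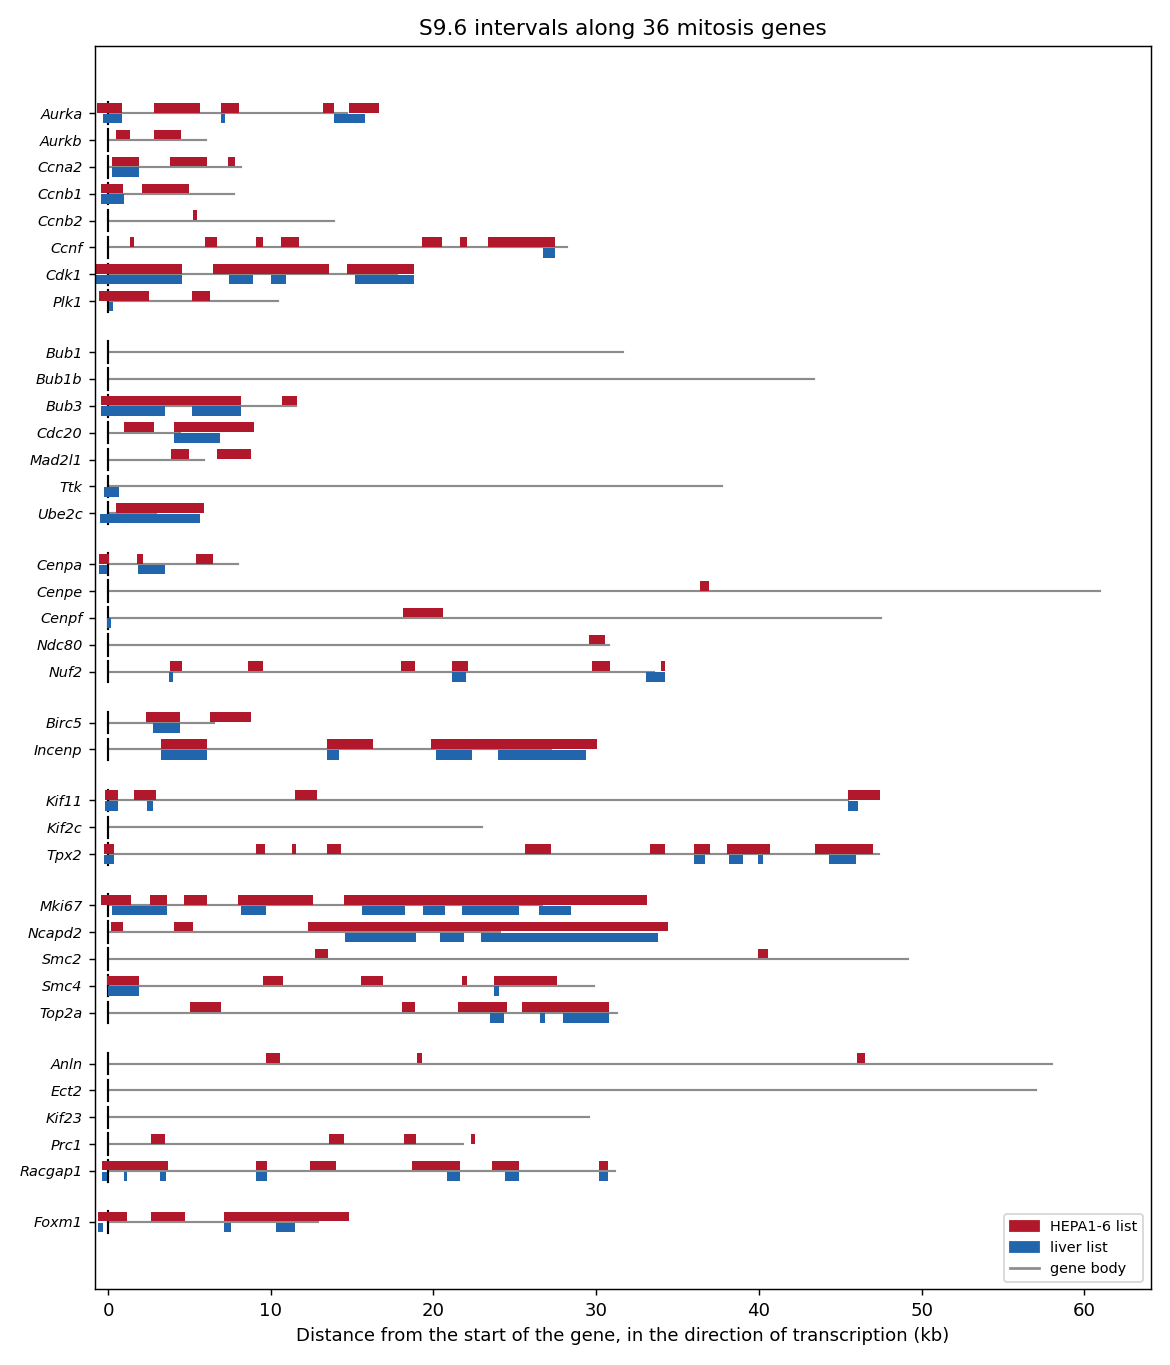
Intervals along 36 genes, drawn to scale by distance from the start in kb (horizontal axis), in the direction of transcription; grey lines are gene bodies, black ticks starts, red bars HEPA1-6 and blue bars liver intervals. Kif20a is left out because its strand could not be placed, and for 6 genes the direction was read from the intervals. Cdk1, Bub3 and Ube2c are covered over most of their length in both lists, whereas Bub1, Bub1b, Kif2c, Ect2 and Kif23 carry no bar.

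Some genes were covered over most of their length. Intervals spread over 50% or more of 8 members in HEPA1-6 (Bub3, Ccna2, Cdc20, Cdk1, Foxm1, Mki67, Ncapd2 and Ube2c), against 9.31% of all protein-coding genes. In liver this held for 3 members (Bub3, Cdk1 and Ube2c), against 3.41%. Intervals of either strand and intervals shared with a neighbouring gene were counted. For instance, both HEPA1-6 intervals at Cdc20 and the Ube2c interval of each list lay on the strand opposite to the gene. The widest HEPA1-6 interval at Ncapd2 also spanned Gapdh, and that at Mki67 ran into Ptpre on the opposite strand. At least 3 intervals were held by 17 members in HEPA1-6 and 11 in liver, against 17.0% and 6.69% of all genes. Of the 5 members without an interval in either list, the shortest, Kif2c, measures 23.0 kb.

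Positions within the genes were read from the strand, taken from RefSeq for 30 genes and from the majority of intervals for 6. An interval lay within 1 kb of the start at 17 of these 36 genes in HEPA1-6 and at 16 in liver, and at 14 in both lists. Among the 30 genes with a RefSeq strand the counts were 12, 12 and 10. Of 17492 protein-coding genes with a RefSeq strand, 24.5%, 16.7% and 15.3% had one there. Intervals of either strand were counted. Among the members with a RefSeq strand, the HEPA1-6 start intervals of Cdc20, Ncapd2, Plk1 and Ube2c lay on the strand opposite to the gene. In liver those of Cenpf and Ube2c did. An interval lay within 1 kb of the end at 20 genes in HEPA1-6 and 12 in liver, of which 16 and 11 had a RefSeq strand, against 23.8% and 11.8% of all. Neither 1 kb window was reached by 59 of the 99 HEPA1-6 intervals, of which 2 could not be placed, and by 31 of the 59 liver intervals. The same share over all protein-coding genes was not computed. When the midpoint of an interval had to lie in the window, the HEPA1-6 counts were 11 at starts and 9 at ends.

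Cover rose over the last 1000 bp before the start. At 1000 bp upstream 0 of 30 members were covered in either list, against 9.49% and 5.00% of all genes. At 250 bp upstream 8 members were covered in each list, against 15.7% and 9.50%. At 250 bp downstream it was 9 in each list, against 17.4% and 10.3%. At 4250 bp downstream HEPA1-6 intervals still covered 10 members (33.3%), against 10.3% of all genes.

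**Figure D4:**
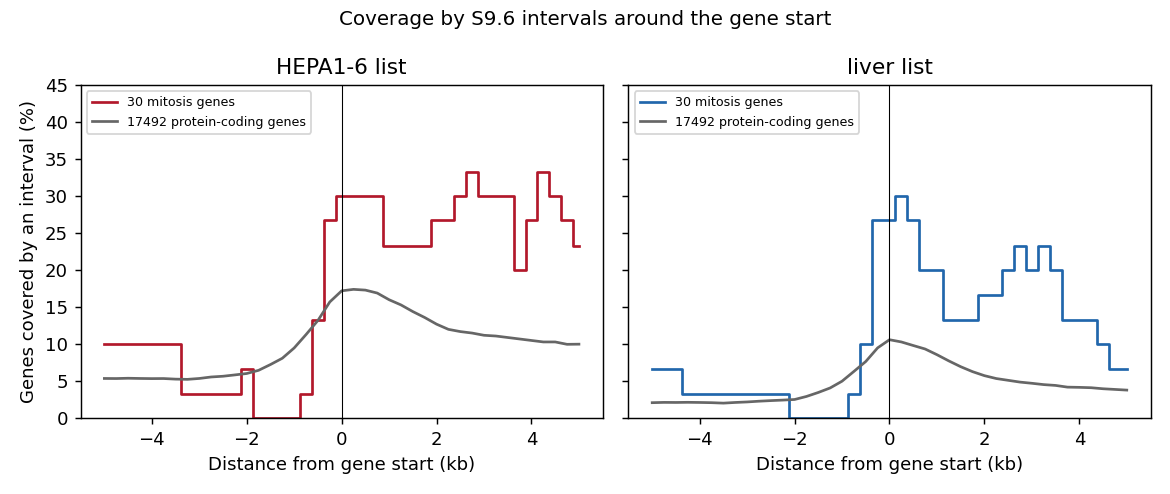
Share of genes covered by an interval (vertical axis, percent) at each distance from the gene start (horizontal axis, kb, in steps of 250 bp), for 30 members with a RefSeq strand (coloured steps) and 17492 protein-coding genes (grey), in each list. The members reach 30.0% at 250 bp downstream in both lists and 0 at 1000 bp upstream; 1 gene is 3.33% of the members.

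Base composition was set beside the start intervals. Among the 30 windows, the 14 of genes with a start interval in either list had CHR letters in 13 and CCAAT in 14. The 16 others had them in 12 and 10. Over all protein-coding genes CHR letters were in 13.5% of windows with and 19.8% of windows without a start interval, and CCAAT in 39.1% and 39.2%. Median GC content was 59.7% and 58.0% in members with and without a start interval. Over all genes it was 62.0% and 53.7%. The ratio of observed to expected CpG was 0.930 and 0.865 in the members and 0.812 and 0.413 in all genes. Single windows departed from these medians, with ratios of 0.52 at Cenpa and 0.118 at Kif2c, below the median of 0.577 over all genes. The start in the Kif2c window lies 3852 bp from the gene boundary at which start intervals were counted, so its ratio describes another site.

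The way in which a strand was given to an interval is not given in the sources used here. Of intervals at members with a RefSeq strand, 62 of 72 in HEPA1-6 (86.1%) and 39 of 44 in liver (88.6%) carried the strand of the gene. Over all protein-coding genes 87.3% and 83.8% did. Overlapping intervals formed 59 pairs at the members, of which 13 (22.0%) had opposite strands, against 14.0% of 10990 stranded pairs in the whole lists. These 13 pairs lay at 9 genes: Aurka, Bub3, Ccnf, Cdc20, Foxm1, Mki67, Plk1, Smc4 and Top2a. At Mki67 a HEPA1-6 interval of 18589 bp that ran on into Ptpre was placed on the plus strand, and the 3 liver intervals of opposite strand within it were on the minus strand, that of the gene. At Top2a the plus strand HEPA1-6 interval of score 61 overlapped liver intervals of scores 14 and 28 on the gene's minus strand. At Plk1 it was the HEPA1-6 start interval that lay on the strand opposite to the gene.

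Edges recurred between the lists. At least 1 edge fell on the same base in 29 of 59 pairs (49.2%), against 46.1% of 11455 pairs in the whole lists. Both edges did so in 6 pairs (10.2%), against 6.29%, at Ccna2, Cdk1, Incenp, Kif11, Racgap1 and Tpx2. Score percentiles were lower in liver in 52 pairs and higher in 7. In the whole lists they were lower in 9561 pairs and higher in 1894, so the members followed the direction of the lists. At the start of Racgap1, 2 liver intervals stood higher than the HEPA1-6 interval they overlapped (percentile 78.2): chr15:99650465-99650698 (score 56, percentile 93.3) and chr15:99651730-99652000 (score 44, percentile 88.5).

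**Figure D5:**
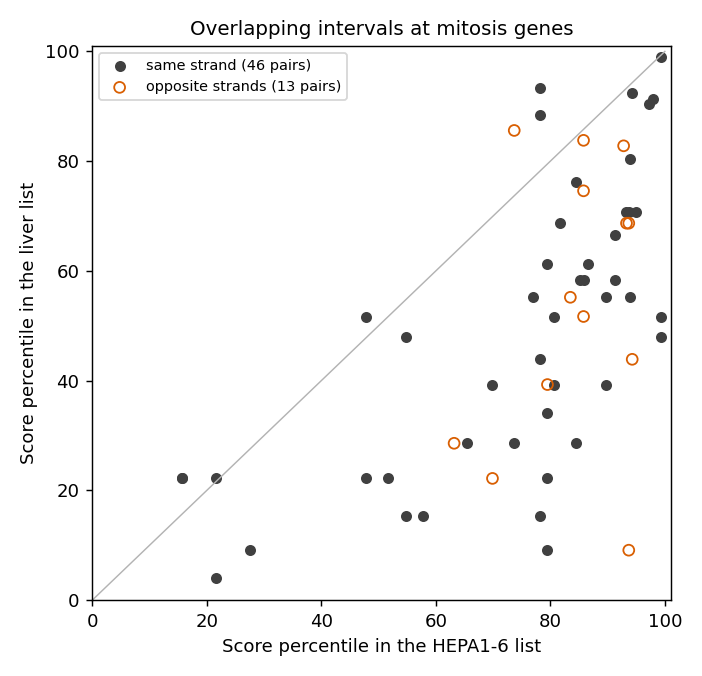
Score percentile of overlapping intervals at the members in the HEPA1-6 list (horizontal axis) and the liver list (vertical axis), 1 point per pair; the line marks equal percentiles. Filled points are pairs of the same strand (46) and open points pairs of opposite strands (13); 52 of 59 points lie under the line. Pairs at a gene can share an interval and are not independent.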

How the data were processed

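The authors deposited 1 interval list per source, with a whole-number score per interval whose scale is not stated. Per the deposited interval names, each list set a merged immunoprecipitate against input. The submitters' processing notes list CASAVA 1.8.2, cutadapt, Bowtie2, bedtools, SAMtools and MACS2, without roles, and build mm10. Caller settings, the libraries merged and the source of the strand are not given in the sources used here. Intervals were laid over RefSeq genes of GRCm38.p6, the same build, with 1-based coordinates. Gene strand came from the RefSeq promoter table, otherwise from intervals that touch that gene and no other. For genes with several starts, the promoter window nearest the gene's boundary was used. Its start lay 3852 bp from that boundary at Kif2c, 514 bp at Ncapd2, 375 bp at Ect2 and 316 bp at Aurka. At the other members with a window it lay at most 71 bp away. All 805 overlapping windows of opposite strands were reverse complements of each other. Members and lists were chosen with earlier results of these data known. Named in full were the 6 highest-scoring members per list, members lacking an interval, members with opposite strands, the widest and most numerous intervals, and those on chromosome 15. Overlap functions were tested on simulated data (Python 3.11.15, pandas 2.3.3). No test applies, because each source has 1 list.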

Additional observations from a re-analysis of the deposited data

How the results depend on the processing

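For 16 results, 74 alternatives were run, 2 of them (starts of the RefSeq promoter table) chosen after seeing the data. Of these, 68 stayed within a limit and 6 moved. The limit was 1.5 times a count or, for median percentiles, a 95% binomial interval. That interval was 79.5 to 93.7 in HEPA1-6 and 58.3 to 83.8 in liver. It treats genes as independent and measures no spread between replicates. The midpoint of an interval gave 11 members at starts and 9 at ends in HEPA1-6. The higher-scoring 50% of each list left 38 HEPA1-6 and 21 liver intervals on the strand of the gene (84.4% and 87.5% of those stranded), since fewer intervals enter. The widest interval gave a median percentile of 76.9 in HEPA1-6; the cause was not tested. The part of the window upstream of the start held CHR letters for 14 members, against 25 in the whole window, since the 50 bases after the start no longer enter. Some counts among the 68 fell nearly to the limit. Further mitosis genes with an interval fell from 59 to 40 in HEPA1-6 with the higher-scoring 50% of each list. In liver they fell from 34 to 23 with intervals that touch any other gene left out. Members with overlapping intervals fell from 21 to 15 when an overlap of 50% of both intervals was required. Members with a HEPA1-6 interval stayed between 29 and 33. Shortening the HEPA1-6 list cannot change liver counts. No paired analysis was possible because each source has 1 pooled list; leaving out replicates was not possible for the same reason. Unknown depth limits every statement that a gene lacks an interval.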
